A study of Mus musculus with 4 samples.

Results

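The mitochondrial carrier family was taken as every gene of the deposited tables whose symbol is Slc25a followed by a number, or Ucp1, Ucp2 or Ucp3, without pseudogenes. The rule found 50 genes among 50600, all 50 of them protein coding, on 19 chromosomes and with 4 on the X chromosome, and it left out 1 pseudogene row. It used names only, so the levels below played no part in it.

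Members of the family are membrane proteins, most of them in the inner mitochondrial membrane. Many exchange 1 solute for another between the matrix and the cytosol. Members of the family bring ADP and phosphate to the ATP synthase and carry the ATP out. They also move the di- and tricarboxylates, amino acids, cofactors, iron and acylcarnitines that link mitochondrial to cytosolic metabolism. In lymphocytes that are activated and divide, the export of citrate and the shuttling of aspartate and malate are known as routes by which mitochondria feed biosynthesis.

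The cells were regulatory T cells, CD4+ lymphocytes that restrain immune responses, labelled as primary cells of the C57BL/6NJ mouse strain. Sex was not collected and age is unknown in the labels, and the 4 libraries carry 1 shared donor record and a biosample each. They form 1 group, and no treatment, genotype or other cell type is set against them. The labels link a differentiation protocol for CD4+ T cells, and the headers of the count tables name the aligned files as activated and 48h, neither of which distinguishes the libraries. The labels do not tell which animals or cultures the biosamples came from, so p-values measure only the spread between these samples, which may be technical.

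The libraries held 43821767, 58696937, 73819468 and 52005209 counts in replicates 1 to 4. Pairs of libraries differed by more than sampling noise, with a chi-square per degree of freedom of 11.1 to 24.4. All 5 regulatory T markers and all 5 T cell markers examined were present in every library, among them Foxp3 at 289 ± 23.5 TPM. TPM is a transcript abundance, a gene's count divided by its exon length and scaled to a common sum per library, and mean ± SD is over the 4 libraries (n = 4) throughout. The markers of tissues known for particular carriers were low or at 0. The summed level of 7 erythroid markers lay between 0 and 1.28 TPM, that of 3 liver markers between 0 and 0.107, that of 3 brown fat markers between 0 and 0.100, that of 3 testis markers between 0 and 0.965 and that of 4 muscle markers between 2.03 and 3.13, most of it Tnnt2. Alas2, Hba-a1, Alb, Cidea, Prm1 and Myh6 had 0 counts. Of 4 B cell markers 1, Cd79b, was above 1 TPM in every library, at 3.11 ± 0.466. Of 5 macrophage and dendritic markers 1, Adgre1, was above 1 TPM in every library, at 1.30 ± 0.328.

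Regulatory T cells transcribed 39 of the 50 carriers. A gene counts as expressed here when it reaches 1 TPM in each library, and the remaining 11 were below 1 TPM in each library. By the same rule 22.9% of all genes and 47.2% of protein-coding genes were expressed. Of the members, 29 exceeded 10 TPM in every library and 8 exceeded 100. The median of the mean levels was 33.6 TPM over the expressed carriers and 33.7 TPM over all expressed protein-coding genes. The expressed carriers as a set thus lay at the level of expressed protein-coding genes, while the leading members were far above it.

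Transcripts of the family summed to 0.428%, 0.443%, 0.433% and 0.437% of TPM in replicates 1 to 4, a mean of 0.435 ± 0.00641%. The 4 most abundant members supplied 66.0 ± 0.482% of that sum. Slc25a5 alone supplied 38.5 ± 0.861%. These shares, and those of the groups below, rest on deposited lengths, and their SDs cover only the spread between libraries. With transcript lengths the family rose to 0.472% of TPM while Slc25a5 fell from 1679 to 1552 TPM, so its share was lower. The order of the expressed members was almost the same in each library, with Spearman's rho across these 39 genes between 0.988 and 0.996 over the 6 pairs of libraries. Genes are not independent replicates, and libraries share the gene lengths that enter this order.

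**Figure D1:**
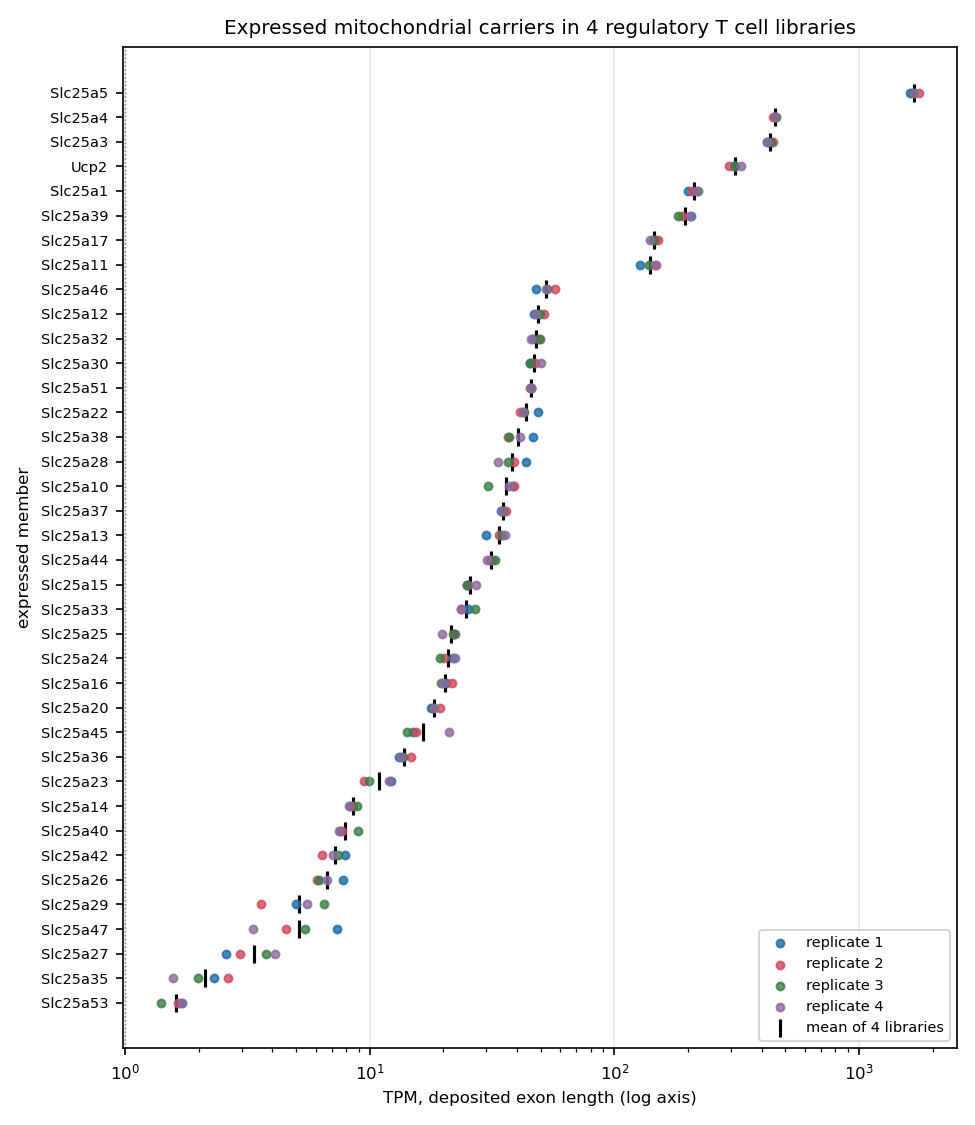
TPM of 38 expressed carriers (rows) on a log axis, with 1 coloured point per library and a black tick at the mean of the 4. Slc25a5 stands apart at 1614 to 1762 TPM, and Slc25a53, at 1.4 to 1.71, is the lowest of those drawn with these deposited lengths.

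ADP/ATP and phosphate carriers were the most abundant transcripts of the family. These carriers supply the ATP synthase. The 9 genes of the adenine nucleotide and phosphate group, of which 6 were expressed, summed to 2615 ± 64.6 TPM, or 60.1 ± 0.701% of the family. Slc25a5, the ADP/ATP carrier of dividing cells (chromosome X, 36795651 to 36798807 of mm10), was at 1614, 1762, 1666 and 1672 TPM in replicates 1 to 4, a mean of 1679 ± 61.2. It ranked 46 among all genes by mean TPM. The 4 values lay close together, with replicate 2 the highest.

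Slc25a4, the ADP/ATP carrier best known from heart and skeletal muscle (chromosome 8, 46206797 to 46211284), was at 453, 445, 458 and 452 TPM, a mean of 452 ± 5.41. With the deposited exon lengths it exceeded all but 1 member of the family in these T cells. Its order relative to Slc25a3 depends on the length used, as described below. Slc25a31, the ADP/ATP carrier of the male germ line, had 0 counts in all 4 libraries, and a count of 0 allows up to 0.112 TPM (3 counts in the library where that is the most). Such floors and the count intervals below cover counting error only, because PCR can copy 1 molecule into several fragments. Slc25a5 was at least 14462-fold higher than Slc25a31, taking 3 counts per library as the floor of the latter.

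The coding sequences of Slc25a5 and Slc25a4 are printed from their start codons because their likeness bears on how well counts can be assigned to each. The sequences are bases 1 to 60 of the principal coding transcript in GENCODE M21, with the 19 bases at which Slc25a4 differs from Slc25a5 in capitals.
Slc25a5: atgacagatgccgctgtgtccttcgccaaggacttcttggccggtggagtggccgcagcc
Slc25a4: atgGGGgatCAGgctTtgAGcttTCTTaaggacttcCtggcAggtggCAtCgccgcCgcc
Over the whole coding sequence of 894 bases each, 77.4% of the bases were identical. The longest identical run, cagttctggcgctactttgc, had 20 bases. No stretch of 50 bases of Slc25a4 occurred in a transcript of another gene.

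Copies of Slc25a5 elsewhere in the genome may limit its count. Of the distinct stretches of 50 bases in its transcripts, 33.8% also occurred in transcripts of 9 other annotated genes, led by Gm5560 with 21.1%. The counting was not asked to include fragments with more than 1 alignment, so fragments from the shared stretches may be missing from the count of Slc25a5. The 9 genes together held 339 counts over the 4 libraries, equal to 0.184% of the 184389 counts of Slc25a5. In 23 of the 50 members no such stretch was shared, and in 3 members, Slc25a5, Slc25a35 and Slc25a33, more than 10% were. Of Slc25a35, 25% was shared with Rangrf. Stretches were matched on either strand, whereas the counting took only 1 strand. No deposited exon of Slc25a35 or Slc25a33 overlapped another gene on the same strand. Whether the shared stretches affected their counts was not tested.

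Slc25a3, the carrier that imports phosphate (chromosome 10, 91116574 to 91124059), was at 421, 443, 436 and 423 TPM, a mean of 431 ± 10.7. It lay just below Slc25a4 in each library when counts were divided by the deposited length. That length sums every annotated exon of a gene, retained introns included, and for Slc25a3 it was 5550 bases against 1612 for the principal coding transcript. Divided by the latter length instead, for Slc25a3 and all other coding genes, Slc25a3 rose to 1033 ± 24.4 TPM while Slc25a4 stood at 385 ± 4.85 and Slc25a5 at 1552 ± 54.3. The order of Slc25a3 and Slc25a4 thus depends on the length, whereas Slc25a5 led with both.

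**Figure D2:**
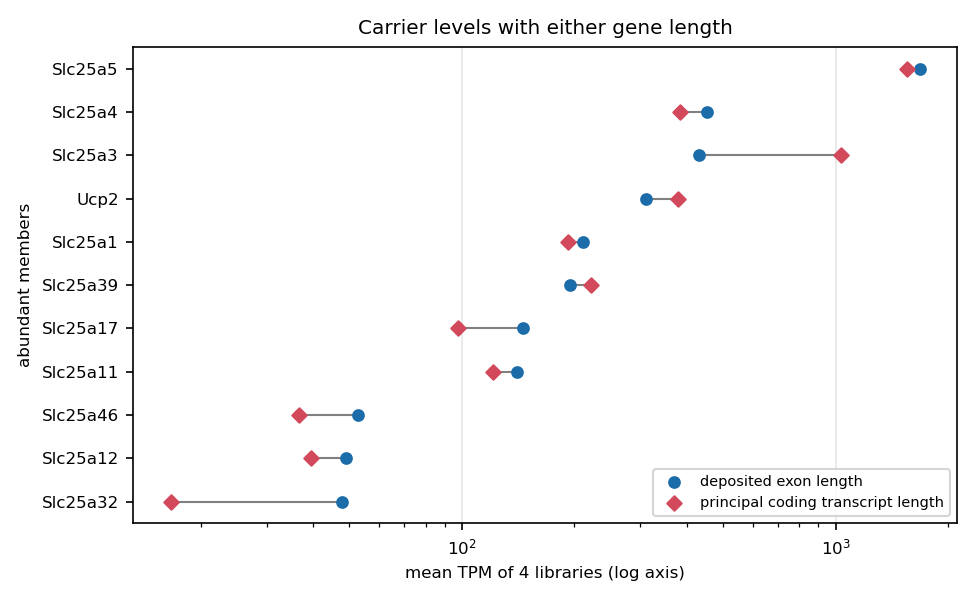
Mean TPM of 11 abundant carriers on a log axis, from the deposited exon length (circles) and from the length of the principal coding transcript (diamonds), joined by a line. Slc25a3 moves from 431 to 1033 TPM and Slc25a32 moves down, while Slc25a5 leads with either length.

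The ATP-magnesium/phosphate carriers, which adjust the total adenine nucleotide of the matrix and respond to calcium, were far lower. Slc25a25 was at 22.3, 22.1, 21.9 and 19.8 TPM and Slc25a24 at 21.8, 20.1, 19.5 and 22.2, and the ranges of this pair overlapped. With transcript lengths Slc25a25 was at 35.8 ± 1.99. Slc25a23 was at 12.3, 9.49, 9.91 and 12 TPM. Their relatives Slc25a41, with 17 counts over the 4 libraries, and Slc25a54, with 0 counts against a floor of 0.133 TPM, were not expressed.

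Carriers of di- and tricarboxylates and oxoacids held 8.95 ± 0.245% of the family's TPM, with 4 of 6 genes expressed. Slc25a1, which exports citrate for the synthesis of fatty acids and sterols (chromosome 16, 17925211 to 17928219), was at 200.3, 207, 221 and 217 TPM. Slc25a11, the oxoglutarate/malate carrier of the malate-aspartate shuttle, was at 128, 148, 139 and 146 TPM, lowest in replicate 1. The dicarboxylate carrier Slc25a10 was lower, at 38.3, 39.0, 30.4 and 37.0 TPM, with replicate 3 below the rest. Slc25a35 was near the threshold at 2.12 ± 0.454. The oxoadipate carrier Slc25a21 had 0 counts, and Slc25a34 had 2 counts in replicate 1 and 0 elsewhere.

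Amino acid carriers held 5.25 ± 0.173% of the family's TPM, with 7 of 9 genes expressed. Both aspartate/glutamate carriers, the calcium-regulated members of the malate-aspartate shuttle, were present. Slc25a12 was at 46.9, 51.4, 49.7 and 47.7 TPM and Slc25a13 at 29.9, 33.9, 34.9 and 35.9, and the ranges did not overlap. Slc25a22, a glutamate carrier, was at 48.5, 41.0, 42.6 and 42.1 TPM, whereas its relative Slc25a18 had 0 counts. Slc25a22 was at least 390.4-fold higher than the floor of Slc25a18.

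Slc25a38, the carrier of glycine for haem synthesis, was at 46.4, 36.9, 37.0 and 41.3 TPM. It was expressed although erythroid markers were at or near 0. Slc25a44, a carrier of branched-chain amino acids, stood at 31.3 ± 1.03 TPM and the ornithine carrier Slc25a15 at 25.6 ± 1.06. Slc25a29, which carries basic amino acids, was at 4.98, 3.61, 6.52 and 5.53 TPM, lowest in replicate 2, and the ornithine carrier Slc25a2 had 0 counts against a floor of 0.174.

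All 4 carriers of iron and glutathione were expressed, at 6.34 ± 0.341% of the family's TPM. Slc25a39, a glutathione carrier, was at 205, 188, 181 and 204 TPM. Its relative Slc25a40 was at 7.53, 7.70, 8.94 and 7.46 TPM, below Slc25a39 in every library and highest in replicate 3, and at 16.6 ± 1.44 with transcript lengths. The mitoferrins import iron for haem and iron-sulphur clusters. Slc25a28, the widely expressed mitoferrin, was at 43.5, 38.8, 36.7 and 33.5 TPM and Slc25a37, the mitoferrin known from red cell precursors, at 34.5, 36.2, 35.1 and 34.8, and the ranges overlapped.

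Each of the 9 carriers of pyrimidine nucleotides, cofactors and vitamins was expressed, at 8.75 ± 0.229% of the family's TPM. Slc25a17, a peroxisomal member that carries cofactors, led at 146, 151, 145 and 139 TPM. Slc25a32, linked to folate and flavin transport, stood at 47.9 ± 1.91 TPM with the deposited length of 2945 bases. It was at 16.6 ± 0.648 with the longer principal transcript of 5905 bases. Counts and deposited lengths follow GENCODE M13 and the transcript follows M21, so this transcript holds bases outside the counted exons. The lower value thus divides by bases that were not counted, and the level of Slc25a32 is uncertain.

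Slc25a51, the carrier of NAD, was at 45.4, 45.1, 45.7 and 45.6 TPM. The pyrimidine nucleotide carriers Slc25a33 and Slc25a36 stood at 24.9 ± 1.64 and 13.8 ± 0.706. Slc25a16, Slc25a42, linked to coenzyme A, and Slc25a26, the carrier of S-adenosylmethionine, lay at 20.4 ± 0.896, 7.19 ± 0.655 and 6.69 ± 0.768, the last at 11.7 ± 1.36 with transcript lengths. Slc25a20, which brings acylcarnitines into the matrix for fatty acid oxidation, was at 17.8, 19.3, 18.1 and 18.3 TPM, or 0.422 ± 0.00945% of the family, and at 34.7 ± 1.22 with transcript lengths.

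Among the uncoupling proteins, 1 of 3 was expressed. Ucp2, known from lymphoid and myeloid cells (chromosome 7, 100493337 to 100502020), was at 307, 294, 312 and 328 TPM, a mean of 310.3 ± 14.3, and ranked 4 in the family. Ucp1, the heat-producing protein of brown fat, had 0 counts against a floor of 0.145 TPM, and Ucp2 was at least 2116-fold above that floor. Ucp3, known from muscle, had 0 counts in replicates 1 and 2, 2 in replicate 3 and 4 in replicate 4. Over the 4 libraries Ucp2 was 10784 times as abundant per base as Ucp3, with an exact Poisson 95% interval of 4955 to 29386. The relatives Slc25a30, Slc25a14 and Slc25a27 were expressed at 47.0 ± 2.41, 8.50 ± 0.274 and 3.35 ± 0.698 TPM. With transcript lengths Slc25a30 was at 15.6 ± 0.782 and Slc25a27 at 2.17 ± 0.449. For Slc25a30 the transcript had 3588 bases against a deposited length of 1706. As for Slc25a32, its lower value divides by bases that were not counted, and its level is uncertain.

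Of 6 members that are little characterised or sit outside the inner membrane, 4 were expressed. Slc25a46, an outer membrane protein with a part in mitochondrial shape, led at 48.0, 57.2, 53.0 and 52.6 TPM. Slc25a45 was at 15.1, 15.4, 14.2 and 21.1, with replicate 4 above the others. Slc25a47, known as a liver carrier, was at 7.32, 4.55, 5.44 and 3.32 TPM while Alb and Ttr had 0 counts. With deposited lengths Slc25a53 was the lowest expressed member at 1.71, 1.65, 1.4 and 1.68 TPM, and the next below it was Slc25a43 at 0.400, 0.293, 0.208 and 0.186. With transcript lengths Slc25a53 was at 3.48 ± 0.313, above Slc25a35 at 2.97 ± 0.637 and Slc25a27. Slc25a48 had 2 counts in replicate 1 and 0 elsewhere.

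Members close together in the genome differed widely in level in 4 of 5 cases, with deposited lengths. In 5 places 2 members lay within 50000 bases of each other. Ucp2 and Ucp3 are 6904 bases apart on the same strand of chromosome 7, with no gene between them, and the first was abundant where the second was nearly absent. Slc25a5 and Slc25a43 are 18448 bases apart on the same strand of the X chromosome, and Slc25a5 was 6432 times as abundant, with an exact Poisson interval of 4532 to 9467. Slc25a23 and Slc25a41, 2056 bases apart, differed 55.9-fold, with an interval of 34.9 to 96.0. Slc25a24 was at least 164-fold above the floor of Slc25a54, 6461 bases away with Gm19391 between them. The remaining neighbours, Slc25a29 and Slc25a47, lie on opposite strands 15245 bases apart with Mir345 between them. Both had a mean of 5.16 TPM with deposited lengths, although their values within a library differed. With transcript lengths they were at 4.74 ± 1.12 and 3.59 ± 1.18.

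The promoter windows of the 2 neighbour pairs with the largest contrast are shown to set their sequences beside these levels. Each runs from 250 bases before to 50 after the start in RefSeq, in build GRCm38.p6, the assembly also called mm10, with every CG dinucleotide in capitals. All 4 are on the plus strand.
Ucp2, chr7:100493108-100493407: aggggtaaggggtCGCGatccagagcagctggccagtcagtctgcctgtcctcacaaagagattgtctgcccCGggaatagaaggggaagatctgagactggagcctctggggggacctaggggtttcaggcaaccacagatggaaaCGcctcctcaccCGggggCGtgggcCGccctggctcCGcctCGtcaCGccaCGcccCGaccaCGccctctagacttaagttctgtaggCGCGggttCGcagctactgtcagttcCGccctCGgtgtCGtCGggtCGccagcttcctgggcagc
Ucp3, chr7:100472741-100473040: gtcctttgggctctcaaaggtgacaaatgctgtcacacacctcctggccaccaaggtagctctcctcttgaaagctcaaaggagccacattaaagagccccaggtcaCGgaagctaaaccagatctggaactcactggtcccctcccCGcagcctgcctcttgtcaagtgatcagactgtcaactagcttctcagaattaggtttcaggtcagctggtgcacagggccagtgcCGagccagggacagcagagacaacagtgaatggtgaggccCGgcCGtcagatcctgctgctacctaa
Slc25a5, chrX:36795347-36795646: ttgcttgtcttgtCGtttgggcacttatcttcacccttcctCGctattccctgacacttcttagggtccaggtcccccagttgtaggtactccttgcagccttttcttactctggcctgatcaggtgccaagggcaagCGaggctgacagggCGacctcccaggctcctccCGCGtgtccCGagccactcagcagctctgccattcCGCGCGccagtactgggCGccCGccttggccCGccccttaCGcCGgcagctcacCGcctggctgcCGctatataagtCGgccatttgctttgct
Slc25a43, chrX:36743382-36743681: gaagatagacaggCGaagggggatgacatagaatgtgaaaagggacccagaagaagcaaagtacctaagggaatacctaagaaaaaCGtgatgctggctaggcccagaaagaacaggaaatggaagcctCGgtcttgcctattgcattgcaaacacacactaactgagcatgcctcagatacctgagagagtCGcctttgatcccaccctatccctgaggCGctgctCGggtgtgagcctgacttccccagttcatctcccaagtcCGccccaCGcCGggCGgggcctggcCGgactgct

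The windows held 21 CG dinucleotides in Ucp2 and 5 in Ucp3, 18 in Slc25a5 and 11 in Slc25a43. RefSeq windows were matched for 39 of the 50 members, 49 windows in all. The median was 17 CG in the 39 windows of expressed members and 8 in the 10 windows of members that were not, against 21 in windows of all expressed genes and 4 in those of all other genes. A high CG count did not come with transcription in each member, since the window of Slc25a31 held 22 and the gene had 0 counts. Windows of 1 gene can overlap, and these counts describe sequences and name no cause.

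Motifs of 3 regulators were searched on both strands of the windows. The core of the nuclear respiratory factor 1 motif, GCGCA, any base and GCGC, was in 2 of the 49 member windows (4.08%), those of Slc25a3 and Slc25a31, and in 4.60% of all windows. Among windows of expressed genes it was in 1 of 39 of the members (2.56%) and in 10.8% of all. CACGTG, the E-box bound by Myc and its relatives, was in 8 member windows (16.3%), against 7.15% of all windows. Among windows of expressed genes it was in 7 member windows (17.9%) and in 10.3% of all. The member windows with it were those of Slc25a1, Slc25a13, Slc25a14, Slc25a15, Slc25a31, Slc25a33 and Slc25a36. More than 1 of them came from Slc25a14, whose windows overlap, so the window shares count this gene more than once. TCAAGGTCA, the motif of oestrogen-related receptors, was in none of the member windows and in 0.423% of all. A match here is a description of letters and not a site.

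Related carriers were compared within each library as the log2 ratio of their TPM, to ask whether the same member led each time. Of 10 pairs, 8 had at least 10 counts for both genes in every library and were tested over the libraries by exact permutation of the signs, two-sided. With 4 libraries the smallest possible p of this test is 1 in 8, so no pair could pass 0.05. In 6 of the 8 pairs the same gene was the higher in 4 of 4 libraries, each with that smallest exact permutation p, which became 0.167 after Benjamini-Hochberg adjustment over the 8 pairs.

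Slc25a5 exceeded Slc25a4 by 1.89 ± 0.07 on the log2 scale, or 3.71-fold. Slc25a39 exceeded Slc25a40 by 4.62 ± 0.20, or 24.7-fold, and by 3.74 ± 0.20, or 13.4-fold, with transcript lengths. Slc25a15 exceeded Slc25a29 by 2.34 ± 0.36 and Slc25a11 exceeded Slc25a10 by 1.96 ± 0.19. Both of these differences lie well beyond the spread between libraries. That of the aspartate/glutamate carriers was smaller but also beyond that spread, at -0.54 ± 0.11 for Slc25a13 over Slc25a12. Slc25a12 was thus 1.46-fold higher, and it led in every library.

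Slc25a33 exceeded Slc25a36 by 0.85 ± 0.14 in TPM from deposited lengths, but the difference was -0.02 ± 0.14 from transcript lengths, with 2 libraries in each direction. The mitoferrins did not separate, with a log2 ratio of Slc25a28 over Slc25a37 of 0.11 ± 0.16 and an exact permutation p = 0.25. With transcript lengths Slc25a37 led in 4 of 4 libraries, at -0.44 ± 0.16 for the same ratio. Slc25a24 over Slc25a25 was -0.04 ± 0.15 (exact permutation p = 0.625) and became -1.30 ± 0.15 with transcript lengths. These 3 ratios depended on the length chosen in sign or size, as did that of Slc25a39 over Slc25a40 in size. The remaining ratios changed in size only. Slc25a11 over Slc25a10 fell from 3.89-fold to 2.82-fold with transcript lengths, and Slc25a15 over Slc25a29 rose from 5.07-fold to 6.31-fold. Slc25a5 over Slc25a4 rose from 3.71-fold to 4.03-fold, and Slc25a12 over Slc25a13 fell from 1.46-fold to 1.38-fold. In each of these pairs the same gene led in 4 of 4 libraries with both lengths.

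**Figure D3:**
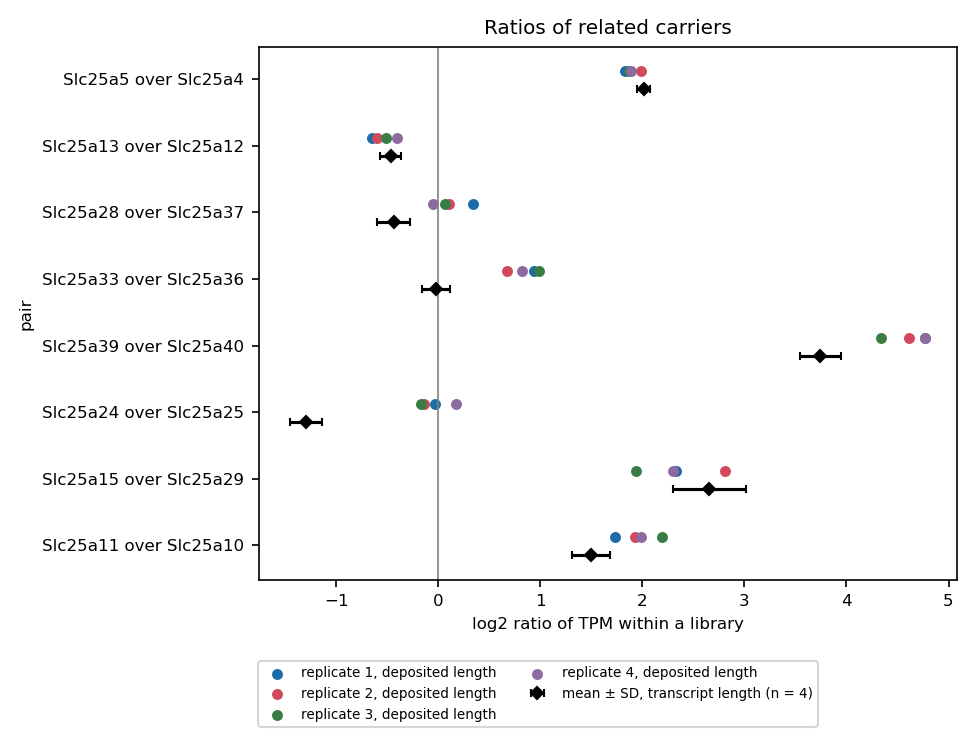
Log2 ratio of TPM within a library for 8 pairs of related carriers, as 1 point per library from deposited lengths and as a diamond with bars for mean ± SD (n = 4) from transcript lengths. Slc25a5 over Slc25a4 lies near 2 with either length, and Slc25a24 over Slc25a25 moves from -0.04 to -1.30.

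Levels of most carriers varied little between libraries. The median coefficient of variation (SD divided by mean) of the 39 expressed members was 6.07%, beside 6.52% over all expressed genes and 5.97% over expressed protein-coding genes. Among the 26 members with a mean of at least 20 TPM it was 4.49%, beside 5.03% over the 6837 genes at that level. The biological coefficient of variation from edgeR had a median of 0.0695 over 39 members and 0.0734 over 12917 genes. The family was thus about as variable as other genes.

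The 3 steadiest expressed members were Slc25a51 at 0.523%, Slc25a4 at 1.2% and Slc25a37 at 2.13%. Counting error alone would give Slc25a51 a coefficient of 1.58%, so its 4 values lay closer together than counting error gives on average, as did those of Slc25a14, at 3.22% against 5.59%. The 3 most variable were Slc25a47 at 32.6%, Slc25a29 at 23.6% and Slc25a35 at 21.4%, for which counting error alone would give 9.08%, 7.0% and 9.10%. All 3 had a mean of at most 5.16 TPM.

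**Figure D4:**
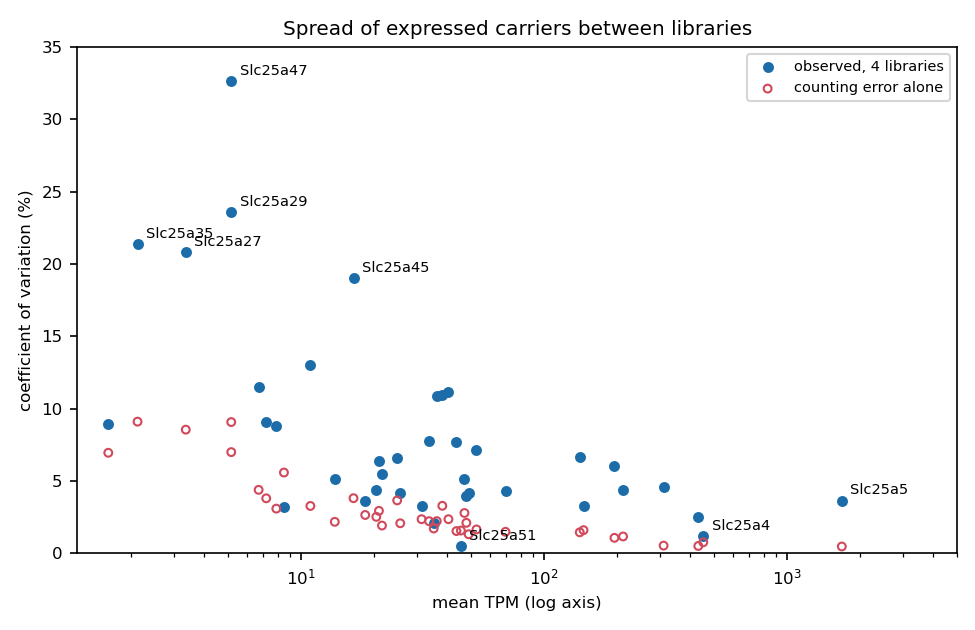
Coefficient of variation over the 4 libraries in percent against mean TPM on a log axis for the 39 expressed carriers, as observed (filled) and as counting error alone would give (open). Slc25a47 is highest at 32.6% and Slc25a51 lowest at 0.523%.

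To ask whether any library differed in its carriers, each was compared with the rest by edgeR's quasi-likelihood test over 12917 genes, with Benjamini-Hochberg adjustment over all of them, which compares libraries and not conditions. All 39 expressed carriers were tested, and the 11 others fell to the filter on low counts. None was called at an adjusted p below 0.05. Of all genes 0.0697% were called for replicate 1, 0% for replicate 2, 0.0232% for replicate 3 and 0% for replicate 4, and 0 of 39 members is close to these shares. At an unadjusted p below 0.05, 6, 1, 1 and 2 members stood out for replicates 1 to 4, beside 1202, 876, 299 and 322 of all genes. DESeq2's Wald test, which gave an adjusted p for 25, 14, 44 and 44 members, called 0 of them for each replicate, and 16, 28, 5 and 0 of all genes.

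The members with the smallest unadjusted p were Slc25a45, 0.50 (SE 0.15) higher on the log2 scale in replicate 4, and Slc25a10, with a log2 difference of -0.32 (SE 0.11) in replicate 3. Their adjusted p in edgeR was 1.0 in both cases. In replicate 1, Slc25a38 was 0.27 (SE 0.11) and Slc25a22 0.20 (SE 0.08) above the other 3, with adjusted p of 0.399 and 0.392 in edgeR. The median log2 difference of the 39 members lay between -0.01 and 0.01 in each of the 4 comparisons, as did that of all genes tested.

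**Figure D5:**
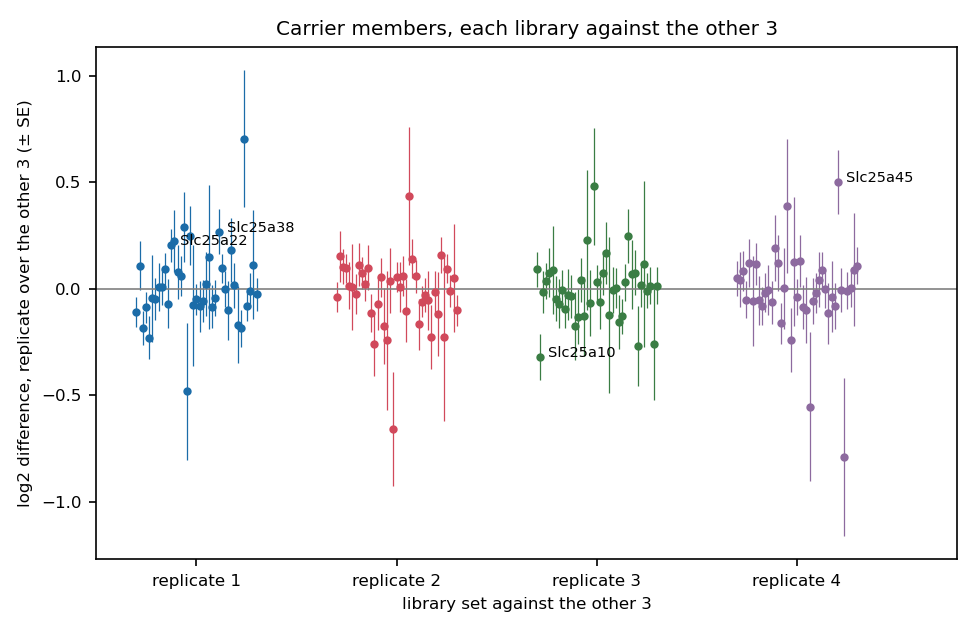
Log2 difference (± SE) of 39 carriers in each library against the other 3, from edgeR. The points spread around 0 in all 4 libraries, with Slc25a45 at 0.50 in replicate 4 and the low, imprecise Slc25a47 farthest from 0 at -0.79 in the same replicate.

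Genes that work with the carriers were expressed almost without exception. Their levels are given with deposited lengths only, so the order within each list may change with the length used. Carriers are made in the cytosol, received by the outer membrane translocase and its Tomm70a receptor, guided by small Timm chaperones and inserted through the Timm22 complex. All 16 genes of this import route were expressed, with a median of 105 TPM. Tomm22, Tomm70a, Timm13 and Timm8b led at 362 ± 21.2, 247 ± 11.3, 220 ± 3.36 and 197 ± 11.7 TPM. Timm22, the insertion pore, stood at 43.0 ± 0.778, and Tomm6 was the lowest at 1.76 ± 0.325.

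Of 21 other mitochondrial transporters, 20 were expressed, with a median of 41.7 TPM. The outer membrane channels Vdac1 and Vdac2 stood at 515 ± 4.42 and 236 ± 10.5, the serine transporter Sfxn1 at 247 ± 2.49, and Mtch1, a distant relative of the carriers in the outer membrane, at 127 ± 1.5. Sfxn5 was the lowest at 0.997 ± 0.138. Mpc1 and Mpc2, which together form the mitochondrial pyruvate carrier, were at 56.8 ± 5.02 and 12.5 ± 1.22 and, like Timm22, were picked after their values were seen. Their counts over the 4 libraries were nearer each other, at 7940 and 6196, so the gap in TPM depends largely on the deposited lengths.

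Of 25 enzymes that make or use the carried substrates, 24 were expressed, with a median of 180 TPM. The ATP synthase subunits Atp5b and Atp5a1 led at 1758 ± 25 and 1577 ± 30.6, close to Slc25a5 when deposited lengths are used for all. Shmt2, of mitochondrial one-carbon metabolism, and malate dehydrogenase Mdh2 followed at 873 ± 68.5 and 513 ± 29.8. Me1, the cytosolic malic enzyme, was the only 1 of the 25 below the threshold, at 0.152 ± 0.0653. In the 4 comparisons between libraries the smallest adjusted p of the 3 lists in edgeR was 0.142, for the import receptor Tomm20 in replicate 1, with a log2 difference of -0.34 (SE 0.09).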

How the data were processed

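RNA of 4 libraries of mouse regulatory T cells was analysed. Per the file headers, the authors counted fragments per gene with featureCounts 1.4.6-p4 on mm10 and GENCODE M13, for paired fragments with both ends aligned and with reverse-stranded counting. The deposited values are raw whole-number counts, with a summed exon length per gene. The sources used here do not give the aligner's version. The labels name total RNA, while the linked library protocol is named for polyadenylated RNA.

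TPM was computed from these counts and lengths. Symbols came from GENCODE M21 for 50376 of 50600 genes. Each replicate was tested against the other 3 with edgeR 4.0.16 (TMM, filterByExpr, quasi-likelihood, Benjamini-Hochberg), after the code was tested on simulated data, and DESeq2 1.42.0 was an alternative. Named members were those in the 10 pairs, with a mean of at least 50 TPM, below 1 TPM, or most or least variable, and others were added by role after their values were seen. Sequences came from GENCODE M21 and RefSeq. Protein sequences were not used here. Members and lists were chosen with earlier results of these data known. Transcript lengths, from GENCODE M21 and not the M13 of the counts, were added as an alternative after the data were seen. The values of 1 expressed member are not reported here by name.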

Additional observations from a re-analysis of the deposited data

Results flagged for a closer look

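In 3 of 48 sets of 4 values examined (39 members, the family's share of TPM and 8 ratios), 1 library lay far from the other 3, where chance gives about 1 in 20. Slc25a25 was at 19.8 TPM in replicate 4 and at 21.9 to 22.3 in the others. Slc25a40 was at 8.94 TPM in replicate 3 and at 7.46 to 7.70 in the others. Slc25a15 was at 27.2 TPM in replicate 4 and at 24.9 to 25.3 in the others. None of these 3 members was called in the edgeR comparisons.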

How the results depend on the processing

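No paired analysis was possible because all 4 libraries belong to 1 group. The count of 39 expressed members became 34 at a threshold of 5 TPM and 35 at an FPKM of at least 1, and was 39 under the other alternatives run. The median coefficient of variation lay between 4.94% and 6.27%, and 0 members were called under each alternative run. The family's share of 0.435% of TPM became 0.388% of counts, 0.455% without genes under 200 bases and mitochondrially encoded genes in the denominator, and 0.472% with transcript lengths, and it was 0.433% to 0.438% with a replicate left out. With counts not divided by length, Slc25a28 over Slc25a37 turned to -1.88 and Slc25a33 over Slc25a36 to -1.49. With transcript lengths they turned to -0.44 and -0.024. With a replicate left out Slc25a24 over Slc25a25 lay between -0.113 and 0.0011, the latter without replicate 3. By construction, only the lengths differ in the first 4 of these values. Calls over all genes were 9, 0, 3 and 0 for replicates 1 to 4. DESeq2 gave 16, 28, 5 and 0, and no filter gave 105, 60, 35 and 16. Leaving out 1 other replicate gave 23 to 341, 3 to 52, 16 to 21 and 2 to 9, with 2 libraries left on the other side, so each library moved these counts by over 1.5 times, and the 341 came without replicate 4. The cause was not tested.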
